A study of Mus musculus with 16 samples.

Results

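The genes Klf2, Klf3, Klf4, Klf6, Klf7, Klf9, Klf10, Klf11 and Klf13, which encode 9 members of the Kruppel-like factor (KLF) family, were followed in splenic B cells. They were chosen by gene symbol, and are 9 of the 27928 genes in the table. All 9 passed the filter on low values, a mean of at least 10 normalized counts over the libraries, as did 14761 genes in all. Follicular (FO) B cells, sorted as CD21lo CD23hi, and marginal zone (MZ) B cells, sorted as CD21hi CD23lo, came from the spleens of young adult C57BL/6 mice. The cKO mice were Gtf2i fl/fl and carried a Cre that is driven from a B cell gene, so that the floxed gene for the transcription factor TFII-I is deleted only in cells that express this Cre, and the WT mice were BL6 mice without Cre. WT FO, WT MZ, cKO FO and cKO MZ had 2 RNA libraries each, with 21546552 to 25083552 reads on genes. The labels do not say whether the 2 libraries of a group came from separate mice or pools, so each p measures the spread between these libraries, which may be technical.

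KLFs are transcription factors whose C2H2 zinc fingers bind GC boxes and CACCC motifs. Several are known as brakes on proliferation: KLF2 keeps resting lymphocytes quiescent and directs their traffic through adhesion and sphingosine 1-phosphate receptors, KLF4 and KLF9 slow the entry of B cells into division, and FOXO factors act upstream of some of them. In mouse B cells, loss of KLF2 is known to expand cells with MZ features, and KLF3, a repressor that recruits CtBP, is known to favour the MZ fate.

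The promoters of Klf2 and Klf3 are shown because these are the members with the highest level per length and with the most even FO to MZ difference. Each runs from 250 bases before to 50 bases after the RefSeq transcription start on GRCm38, read on the coding strand. Klf2 lies at chr8:72318812-72319111 and Klf3 at chr5:64803271-64803570, both on the plus strand. Capitals mark CACCC on either strand (GGGTG when read on the other strand) and, in Klf2, the match to the MEF2 motif.
Klf2: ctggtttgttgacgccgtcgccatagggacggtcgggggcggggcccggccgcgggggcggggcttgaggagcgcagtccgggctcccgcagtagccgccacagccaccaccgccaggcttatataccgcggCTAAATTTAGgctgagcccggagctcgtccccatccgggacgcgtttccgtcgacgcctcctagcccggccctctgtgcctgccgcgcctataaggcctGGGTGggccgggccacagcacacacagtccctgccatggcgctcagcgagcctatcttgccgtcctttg
Klf3: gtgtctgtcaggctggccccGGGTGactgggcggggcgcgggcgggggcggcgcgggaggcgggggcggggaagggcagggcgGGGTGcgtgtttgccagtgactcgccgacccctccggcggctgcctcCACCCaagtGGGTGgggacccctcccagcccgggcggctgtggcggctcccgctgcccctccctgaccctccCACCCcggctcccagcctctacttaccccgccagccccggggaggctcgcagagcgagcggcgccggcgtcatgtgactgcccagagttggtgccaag
The Klf2 window held 1 CACCC and 1 MEF2 match, starting 118 bases before the start site, and the Klf3 window held 5 CACCC matches. On both strands, CACCC was present in 5 of the 8 members with an entry (Klf2, Klf3, Klf7, Klf9 and Klf13) and in 57.5% of all 32851 promoters of the same length. The GC box ggggcgggg was present in 5 of 8 (Klf2, Klf3, Klf4, Klf11 and Klf13) and in 11.4% of all promoters. The MEF2 motif was in Klf2 alone among the 8 and in 3.19% of all promoters, and the FOXO core GTAAACA was in Klf9 alone and in 3.65%. The cyclic AMP response element tgacgtca (1.79% of all promoters), the CArG box (1.63%) and TATAAA (13.6%) were in none of the 8 windows. CACCC and the GC box did not overlap where both were found as spelled here. A match describes the letters of the window and is not evidence of binding. Klf10 had no entry.

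The libraries held B cells by their markers, with Ms4a1 at 33496 to 58510 and Cd79a at 25439 to 33253 normalized counts. All 6 MZ markers were called higher in MZ and 3 of 4 FO markers higher in FO over both genotypes by limma. These counts include Cr2, the gene of CD21, and Fcer2a, the gene of CD23. The cells were sorted on these proteins, so the 2 genes are no separate check of the subsets. Other cells with KLF transcripts were looked for by their own genes: the T cell receptor genes Cd3e, Cd3d, Cd3g and Trbc2 were at 13.3 or less in every library, although Lck was at 692 to 1226. Of the endothelial genes, Kdr was at 6.34 or less and Tek at 2.06 or less, although Pecam1 was at 5116 to 7920. Cdh5 was at 16.2 to 21.0 in FO and 55.9 to 110 in MZ, and limma called it higher in MZ and Vwf, with means of 18.7 in FO and 6.77 in MZ, higher in FO. The MZ mean of Vwf was below the filter on low values, so the call of Vwf rests on low counts. The summed granulocyte markers were at 1909 normalized counts in cKO MZ replicate 1 and at 47.0 to 112 in the others, and the summed erythroid markers were at 14473 in cKO MZ replicate 1 and at 34.9 to 1089 in the others. Macrophage marker sums were 536 to 1122 in FO and 634 to 1713 in MZ libraries, and 2 of the 8 markers, Hmox1 and Spic, were called higher in MZ by limma. Of 6 plasma cell markers limma called 1, Sdc1, higher in FO, against 7.45% of all genes tested. It called 2, Prdm1 and Mzb1, higher in MZ, against 10.9%. The part of these marker differences in the KLF results was not tested beyond leaving out cKO MZ replicate 1. In bulk samples fewer cells of a type and less RNA per cell cannot be told apart.

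The deleted gene Gtf2i had a mean of 1681 normalized counts in cKO and 2342 in WT and the genotypes did not overlap. The log2 difference of -0.47 was under the 1.5-fold that a call required, whatever its p. The limma adjusted p was 0.0793 and the DESeq2 adjusted p was 2.35e-04. The study reports the deletion in genomic DNA, mRNA and protein. All WT libraries held Xist at 25930 to 47002, cKO FO replicate 1 held it at 14748 and the other cKO libraries at 89.7 or less, while Ddx3y was at 6.34 or less in WT and at 2682 to 5514 in cKO. Genotype and sex-linked transcripts therefore cannot be told apart, and cKO FO replicate 1 held both Xist and Ddx3y transcripts.

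Levels were compared between members per kilobase of exon sequence, as normalized counts per kilobase over the 8 libraries. Klf2 had the highest mean level, 8502 per kilobase (range 3042 to 13934), above 99.5% of the 14425 tested genes with a length. Klf6, a widely expressed member that behaves as an early response gene, followed at 4401 (1763 to 6239), and the ranges of Klf2 and Klf6 overlapped. Klf4, a reprogramming factor, was at 1248 (792 to 1722), below every library of Klf6, and Klf13, known as an activator of Ccl5 in T cells, at 929 (717 to 1124), again with overlapping ranges. Klf3 was at 346 (186 to 525), below every library of Klf13. Klf11 was at 216, Klf7 at 148, Klf9 at 85.1 and Klf10 at 82.6 per kilobase, and each overlapped its neighbour in this order. The order rests on annotated exon length: Klf3 has 11243 bases in the union of its exons and 5221 in its longest coding transcript. With the shorter length the mean of Klf3 was 744 per kilobase (401 to 1131) and overlapped Klf13 (844 to 1324), and Klf10 at 113 passed Klf9 at 91.3.

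The first comparison asked how KLF transcripts differ between FO and MZ B cells. Klf2, Klf3 and Klf10 were higher in FO, each by more than 2-fold over both genotypes, and none of the 9 was called higher in MZ. Calls required a 1.5-fold difference and a limma p, after Benjamini-Hochberg adjustment over all genes tested, no higher than 0.05, on log2(normalized count + 1) in 1 fit of the 8 libraries. Over both genotypes 3 of 9 members were called higher in FO, against 7.45% of all genes tested, and 0 of 9 higher in MZ, against 10.9%. The 9 log2 differences were all above 0 with a median of 0.38, and the median of all genes tested was 0.0045. In 3 members (33.3%) every FO library lay above every MZ library, against 17.9% of all genes tested.

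**Figure D1:**
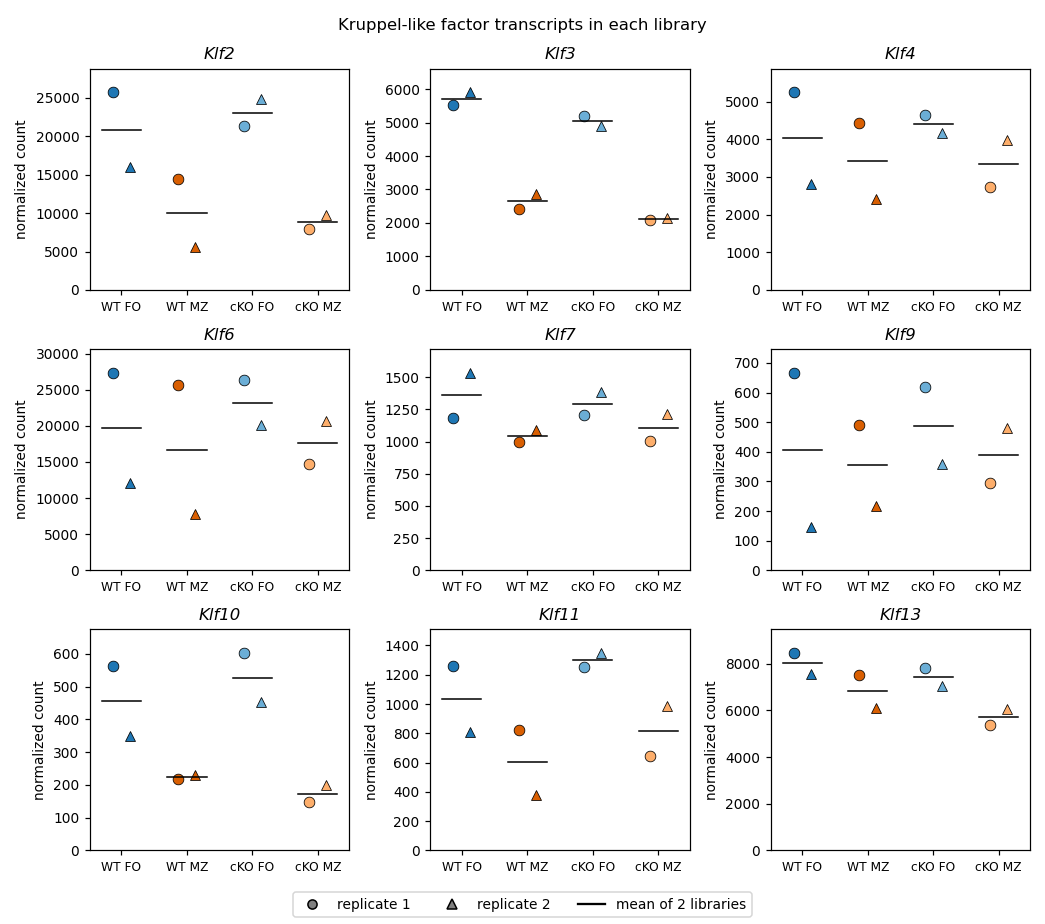
Normalized counts (vertical axes from 0, a scale of its own for each gene) of the 9 Kruppel-like factor genes in the 8 libraries by group; circles are replicate 1, triangles replicate 2 and lines the mean of the 2 libraries. FO libraries of Klf2, Klf3 and Klf10 lie above all MZ libraries, while the WT replicates of Klf6 and Klf9 are far apart.

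Klf2 (ENSMUSG00000055148.7, chromosome 8 from 72319033 to 72321656, plus strand, GRCm38), the factor most closely tied to lymphocyte quiescence, was read at 25736 and 16010 normalized counts in the WT FO libraries and at 14383 and 5618 in the WT MZ libraries. The cKO libraries held 21384 and 24809 in FO and 7893 and 9795 in MZ. The lowest FO library, at 16010, was close to the highest MZ library, at 14383, and both were WT. Over both genotypes Klf2 was 2.43-fold higher in FO (log2 difference 1.28, standard error 0.288, limma adjusted p = 0.0115). Within WT the log2 difference was 1.18 and was not called (limma adjusted p = 0.0933). It ran from 0.50 to 1.85 with each library left out, and was called without WT MZ replicate 1 (limma adjusted p = 0.00794) and, at 0.84, without both WT replicate 2 libraries (0.0362). Within cKO the log2 difference was 1.39, at the threshold (limma adjusted p = 0.0499, edgeR 0.0547). The call within cKO was lost when any of the 4 cKO libraries was left out (limma adjusted p of 0.127 to 0.236). Between libraries of the same genotype and number the FO to MZ ratio ran from 1.79 to 2.85. Without cKO MZ replicate 1 the log2 difference over both genotypes was 1.20 and was not called (limma adjusted p = 0.0509). Without both WT replicate 2 libraries it was 1.11 and was called (limma adjusted p = 5.99e-04).

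Klf3 (ENSMUSG00000029178.14, chromosome 5 from 64803388 to 64832901, plus strand), the CtBP-recruiting repressor, was read at 5516 and 5903 normalized counts in WT FO libraries and at 2427 and 2880 in WT MZ libraries. In cKO it was at 5209 and 4892 in FO and 2096 and 2162 in MZ. Every FO library was above every MZ library by a wide margin, and the replicates of each group lay close together. Over both genotypes Klf3 was 2.26-fold higher in FO (log2 difference 1.18, standard error 0.0718, limma adjusted p = 3.19e-05). Both genotypes alone called it, with 1.11 in WT (limma adjusted p = 5.38e-04) and 1.25 for cKO (limma adjusted p = 3.02e-04), as did the fits without each library in turn. Its FO to MZ ratios within a number were 2.05 to 2.49. The antisense transcript Gm20033 shares 404 exon bases with Klf3 and had a mean of 51.8 normalized counts, and whether the counting used strand is not given in the sources used here.

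Klf10 (ENSMUSG00000037465.10, chromosome 15 from 38291463 to 38300706, minus strand), known as an early gene of TGF-beta signalling, was read at 564 and 348 normalized counts in WT FO libraries and at 219 and 229 in WT MZ libraries. In cKO it was at 604 and 452 in FO and 149 and 199 in MZ. The FO libraries spread more than the MZ libraries, but the groups did not overlap. Over both genotypes Klf10 was 2.45-fold higher in FO (log2 difference 1.29, standard error 0.185, limma adjusted p = 0.00154). WT gave a log2 difference of 0.98 (limma adjusted p = 0.0403), and cKO gave 1.60 (limma adjusted p = 0.00539). Over both genotypes it was called without each library in turn. The call within WT was lost when any of 7 of the 8 libraries was left out (limma adjusted p of 0.0563 to 0.179), WT FO replicate 2 being the other, and the call within cKO was lost without cKO MZ replicate 1 (0.0524).

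Klf11, the closest relative of Klf10 and like it a partner of the SIN3 corepressor, was at 1259 and 806 normalized counts (WT) and 1251 and 1350 (cKO) in FO libraries and at 822 and 381 (WT) and 647 and 985 (cKO) in MZ libraries. The WT FO replicate 2 library lay below the 2 highest MZ libraries. Its log2 difference over both genotypes was 0.77 (95% interval 0.16 to 1.39) with a limma adjusted p of 0.0563, so it was not called, while DESeq2 on the recovered reads called it (0.73, adjusted p = 0.00678). Without both WT replicate 2 libraries limma called it (0.66, adjusted p = 0.0216), and likewise without WT FO replicate 2 alone (0.0394) or WT MZ replicate 1 alone (0.0075).

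Klf13 was at 8469 and 7558 normalized counts (WT) and 7806 and 7056 (cKO) in FO libraries and at 7533 and 6106 (WT) and 5397 and 6048 (cKO) in MZ libraries. Its log2 difference of 0.31 had a limma adjusted p of 0.0321 but was under 1.5-fold, so it was not called. Klf7, which acts in neurons and lymphoid progenitors, was at 1181 and 1536 (WT) and 1204 and 1386 (cKO) in FO libraries and at 993 and 1088 (WT) and 1001 and 1214 (cKO) in MZ libraries, with a log2 difference of 0.30 (limma adjusted p = 0.0733). In both genes the subsets overlapped only through the highest MZ library. Klf7 shares 3196 exon bases with the antisense transcript Gm26649, for which no value was used here.

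Klf4, Klf6 and Klf9 had wide intervals around their FO to MZ differences. Klf4 was at 5250 and 2826 normalized counts (WT) and 4634 and 4175 (cKO) in FO libraries and at 4446 and 2415 (WT) and 2721 and 3984 (cKO) in MZ libraries, a log2 difference of 0.33 (95% interval -0.26 to 0.91). Klf6 was at 27394 and 12027 (WT) and 26338 and 20112 (cKO) in FO libraries and at 25650 and 7742 (WT) and 14721 and 20624 (cKO) in MZ libraries, a log2 difference of 0.38 (-0.54 to 1.31). In both genes each WT replicate 1 library was above the replicate 2 library of its group by more than the subsets differed. Klf9, a target of the glucocorticoid receptor, was at 668 and 147 (WT) and 618 and 359 (cKO) in FO libraries and at 492 and 216 (WT) and 294 and 482 (cKO) in MZ libraries, a log2 difference of 0.13 (-1.01 to 1.28). The upper bounds of Klf6 and Klf9 lay beside the estimate of 1.28 for Klf2.

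**Figure D2:**
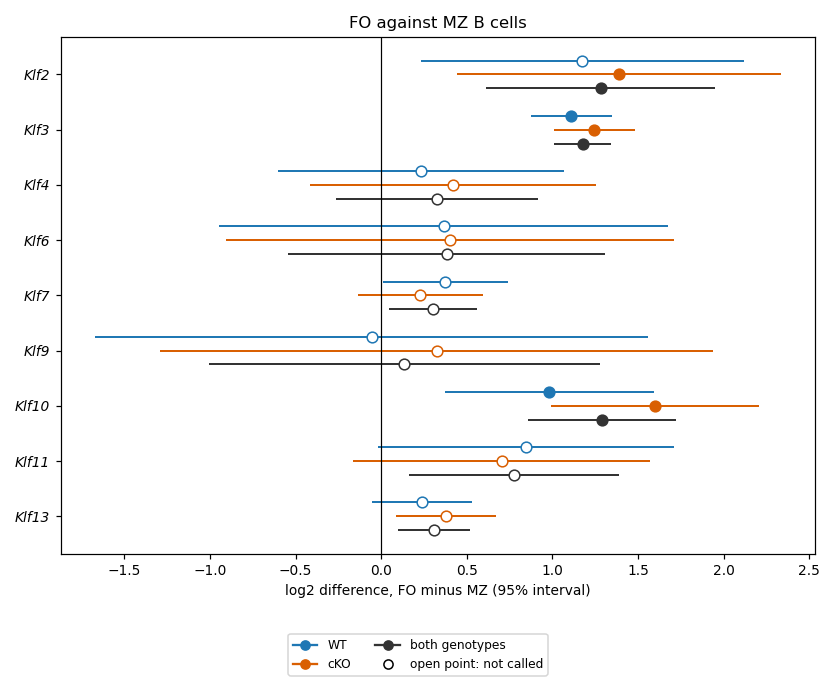
Log2 difference of FO minus MZ (horizontal axis) for each Kruppel-like factor in WT, in cKO and over both genotypes; points are limma estimates, bars their 95% intervals, and filled points were called. Klf3 and Klf10 are filled in all 3 rows and Klf2 in cKO and over both genotypes. All 3 bars of Klf4, Klf6 and Klf9 cross 0, as do the WT and cKO bars of Klf11, the WT bar of Klf13 and the cKO bar of Klf7.

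The WT and cKO log2 differences come from separate libraries. Their p values are not independent, because the 1 fit of the 8 libraries gave them a shared estimate of the spread. In WT 2 of 9 members were called higher in FO (Klf3 and Klf10), against 4.62% of all genes tested, and 8 of 9 differences were above 0, with Klf9 at -0.06. In cKO 3 of 9 were called (Klf2, Klf3 and Klf10), against 5.54%, and 9 of 9 differences were above 0. No member's FO to MZ difference was called as differing between the genotypes, as the interaction term was called for 0 of 9 members and for 0% of all genes by limma, DESeq2 and edgeR. At an unadjusted p below 0.05 limma had 0 members and 94 of the 14761 genes. The member with the lowest interaction p was Klf10, with a log2 interaction of 0.62 (95% interval -0.25 to 1.48).

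The second comparison asked whether KLF transcripts differ between cKO and WT B cells. None of the 9 was called in FO, in MZ or over both subsets by limma, DESeq2 or edgeR. Few genes were called at all by limma: 0.0339% of those tested in MZ, 0.0677% in FO and 0.108% over both subsets. At an unadjusted p below 0.05 the limma counts were 1 of 9 members in MZ, 0 of 9 in FO and 1 of 9 over both subsets. The member was Klf3. Of the 14761 genes tested, 596 in MZ, 382 in FO and 978 over both subsets had such a limma p. The median log2 difference of the members over both subsets was 0.08, and 6 of 9 were above 0.

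Klf3 had means of 5050 normalized counts in cKO FO and 5709 in WT FO, and of 2129 in cKO MZ and 2654 in WT MZ. Within each subset both cKO libraries of Klf3 lay below both WT libraries, and in MZ this also held for Klf10 and Klf13. With 2 libraries against 2, genes can often separate in this way without a difference in level. The share of all genes tested that do so was not counted, so the separation is not read as a change in cKO. The log2 difference of Klf3 over both subsets was -0.24 (95% interval -0.41 to -0.08, limma adjusted p = 0.62), which is 0.844 of the WT level. Klf7 had the smallest difference, 0.01 (-0.25 to 0.27), and Klf10 had -0.07 (-0.50 to 0.36). Klf13 was at -0.18 (-0.39 to 0.03) and Klf2 at 0.08 (-0.59 to 0.74). Klf4 was at 0.10 (-0.49 to 0.69), Klf11 at 0.44 (-0.17 to 1.05), Klf6 at 0.32 (-0.60 to 1.25) and Klf9 at 0.39 (-0.75 to 1.54). Changes above 1.5-fold over both subsets lay outside the interval for Klf3, Klf7, Klf10 and Klf13. They lay inside it for Klf2, Klf4, Klf6, Klf9 and Klf11. Within a single subset they were also inside the interval of Klf10, which was -0.99 to 0.23 in MZ and -0.37 to 0.85 in FO. Without both WT replicate 2 libraries the differences of Klf2, Klf4, Klf6 and Klf9 turned to -0.44, -0.34, -0.40 and -0.44, none of them called by limma.

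**Figure D3:**
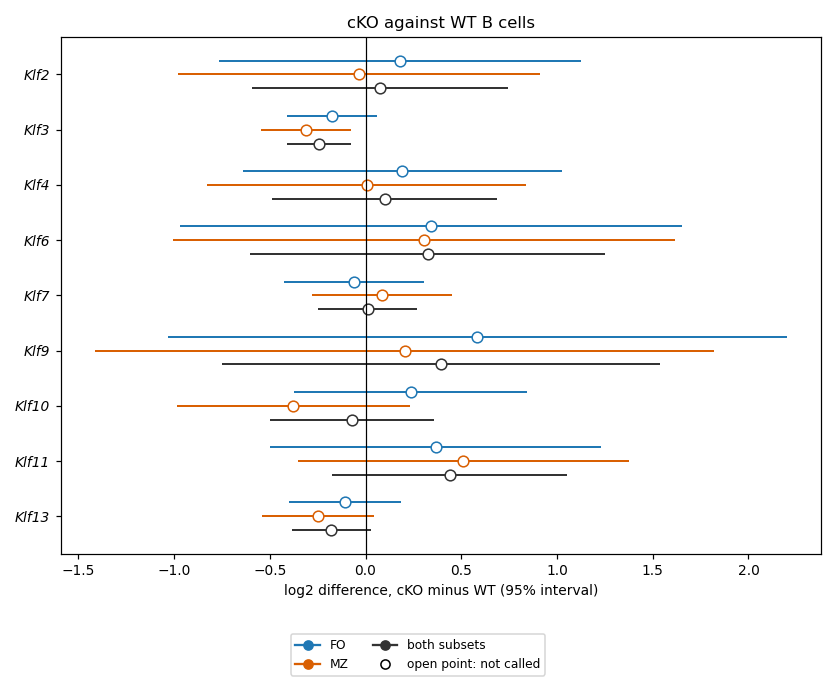
Log2 difference of cKO minus WT (horizontal axis) for each Kruppel-like factor in FO, in MZ and over both subsets; points are limma estimates and bars their 95% intervals. All points are open, meaning not called; the narrowest bars belong to Klf3, which lies below 0 at -0.24 over both subsets.

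The WT replicates differed in several members more than the subsets or genotypes did. Klf2, Klf4, Klf6, Klf9 and Klf11, which are 5 of the 9, were at least 1.5-fold higher in replicate 1 than in replicate 2 in both WT FO and WT MZ, against 4.67% of all genes tested. Klf6 was 2.28-fold higher in replicate 1 in WT FO and 3.31-fold in WT MZ, and Klf9 was 4.53-fold and 2.27-fold higher. Klf2 was 1.61-fold and 2.56-fold higher. Klf3 went slightly the other way, at 0.934 and 0.843 of replicate 2, and Klf7 was at 0.768 and 0.913. In cKO MZ replicate 2 was the higher library for all 9 members, by 1.03-fold for Klf3 to 1.64-fold for Klf9. The share of all genes higher in cKO MZ replicate 2 was not counted, and several members vary together, so these are not 9 separate observations. The median gene differed by 1.11-fold to 1.18-fold between replicates of a group.

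Several immediate-early genes, which are induced within minutes of stimulation, showed the same split between WT replicates. By the same rule 8 of 19 were higher in WT replicate 1: Fosb, Fosl2, Jun, Jund, Nr4a1, Nr4a2, Nr4a3 and Atf3. Nr4a1, a reporter of antigen receptor signalling, was at 16637 against 6551 normalized counts in WT FO and at 23203 against 8711 in WT MZ. Atf3, a stress-induced factor, was at 1421 against 147 in WT FO and at 6474 against 693 in WT MZ. Other immediate-early genes did not follow, and Fos was higher in replicate 2 in both WT subsets. Of 20 cycling genes 0 met the rule, 7 met its reverse, replicate 2 at least 1.5-fold above replicate 1 in both WT subsets, against 4.83% of all genes tested, and the others met neither. Mki67 met the reverse, with 275 and 655 in WT FO and 1339 and 3777 in WT MZ. Of 17 quiescence-associated genes 1 met the rule, against 4.67% of all genes tested, and 1 met its reverse, against 4.83%. Both counts are near these shares. Txnip, a glucose-sensing gene high in resting cells, met the rule, with 42356 and 16721 in WT FO and 24561 and 9495 in WT MZ. Slfn2 met the reverse. The part of these library differences in the FO to MZ and genotype results was not tested beyond leaving libraries out.

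**Figure D4:**
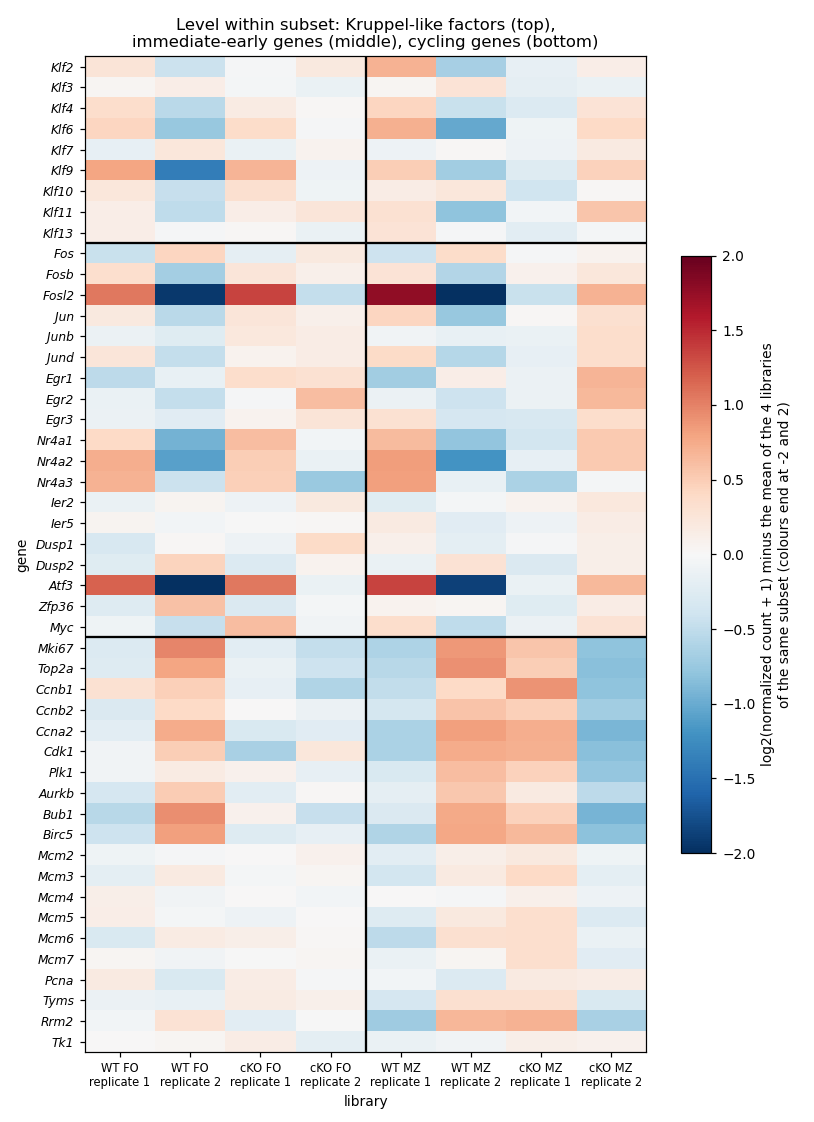
Heat map of log2(normalized count + 1) minus the mean of the 4 libraries of the same subset, with libraries as columns and the 9 Kruppel-like factors, 19 immediate-early genes and 20 cycling genes as rows; red is above and blue below that mean. Klf6 and Klf9 are red in WT replicate 1 and blue in WT replicate 2, as are Atf3 and Fosl2, while Klf3 is pale throughout.

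The members fell into different patterns over the 8 libraries, described by Pearson's r of log2 values. Klf6 ran with Klf4 (r = 0.951) and with Klf9 (r = 0.878), and Klf3 ran with Klf10 (r = 0.915) but not with Klf9 (r = -0.015) or Klf6 (r = 0.172). Klf2 lay between, at 0.905 with Klf11 and 0.764 with Klf3. These values are over 8 libraries that share subset, genotype and replicate differences. Among 10177 genes with a mean of at least 100 normalized counts, those most like Klf2 were Mon2 (r = 0.989), Fbxw2 and Cpsf1. Those most like Klf3 were Lbh (r = 0.998), Ptbp3 and Alcam, and those most like Klf10 were Tle4 (r = 0.987), Slc35f6 and Zc3hav1l. Lbh, for example, had a mean of 13545 normalized counts in FO and 5795 in MZ.

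Among relatives of the 9 in the KLF and SP families, 12 of 17 were in the table and 9 were tested. Over both genotypes limma called 4 higher in FO and 1 higher in MZ, against 7.45% and 10.9% of all genes, with a median log2 difference of 0.49. Klf8, a CtBP-binding relative of Klf3, was 1.58-fold higher in FO and Klf16 1.51-fold. Sp2 was 1.52-fold and Sp3, a ubiquitous factor of GC boxes, 1.51-fold higher, all near the cutoff. Klf5, which promotes proliferation in epithelia, was 9.22-fold higher in MZ, with 2.01 to 4.48 normalized counts in FO and 27.8 to 50.1 in MZ. The FO mean of Klf5, 3.08, was below the filter on low values, which the gene passed through its MZ libraries. The subsets did not overlap, but the size of this fold depends on the 1 added to each count. The single relative called higher in MZ is therefore a gene of low counts. Without cKO MZ replicate 1, 2 of these relatives were called higher in FO. None of the 9 was called between genotypes.

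Genes through which KLF2 is known to act on lymphocyte traffic moved in both directions. Of 12, 4 were called higher in FO and 3 higher in MZ over both genotypes by limma, against 7.45% and 10.9% of all genes. Among them, Itgb7, an integrin chain of gut homing and a known target of KLF2 in B cells, was 4.27-fold higher in FO, Ccr7, a chemokine receptor of lymph node homing, 3.84-fold and S1pr4 by a log2 difference of 1.59. S1pr1, the egress receptor whose gene KLF2 activates in T cells, was 1.54-fold higher in MZ, with 8617 to 10489 normalized counts in FO and 13698 to 16887 in MZ. S1pr3 was 35.3-fold and Ackr3, a CXCL12 scavenger, 62.7-fold higher in MZ. S1pr3 is also on the list of MZ markers. The median log2 difference was 0.11, and 0 of 12 were called between genotypes over both subsets.

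Genes associated with quiescence were called higher in FO for 6 of 17 and higher in MZ for 0 of 17 over both genotypes by limma, against 7.45% and 10.9% of all genes, with a median log2 difference of 0.47. Foxo1, the main FOXO factor of B cells, was 1.59-fold higher in FO and Foxo4 1.64-fold. The cell cycle inhibitors Cdkn1a and Cdkn2d were 4.79-fold and 3.54-fold higher, Bach2, a repressor of plasma cell fate, 3.84-fold and Slfn2, which is required for lymphocyte quiescence, 1.72-fold, with overlapping subsets. Txnip had a log2 difference of 0.85 and was not called (limma adjusted p = 0.111). Cycling genes were called higher in MZ for 12 of 20, against 10.9% of all genes, and higher in FO for 0 of 20, against 7.45%. Called higher in MZ were, for example, Mki67, 6.17-fold, and Top2a, 4.99-fold. The count of 12 cycling genes was the same without cKO MZ replicate 1 and without both WT replicate 2 libraries, while the quiescence count was 5 and 7. In neither list was a gene called between genotypes over both subsets.

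**Figure D5:**
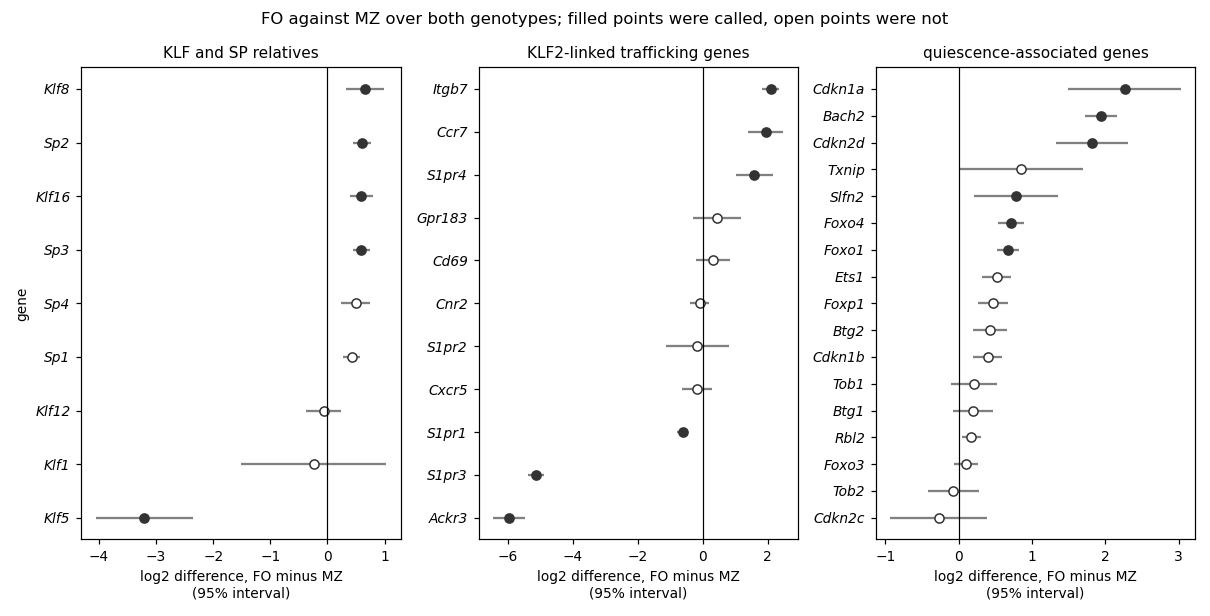
Log2 difference of FO minus MZ over both genotypes (horizontal axes) for the tested KLF and SP relatives, the KLF2-linked trafficking genes reported here and the quiescence-associated genes; points are limma estimates, bars 95% intervals, and filled points were called. Called relatives lie near 0.6 except Klf5 at -3.20, the trafficking genes lie on both sides of 0, and every called quiescence gene lies above 0.

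Upstream of Klf2, the kinase ERK5 (Mapk7) is known to activate MEF2 factors that switch on its promoter. Mef2c was the single called gene of 8 on this path, against 7.45% of all genes higher in FO. It was 2.06-fold higher in FO over both genotypes (limma adjusted p = 9.59e-05), with 12752 to 16243 normalized counts in FO and 6192 to 8329 in MZ. Mapk7 itself had a log2 difference of 0.13 (limma adjusted p = 0.269). Of 10 KLF corepressors 2 were called higher in FO, against 7.45% of all genes. They were Fhl3, a known partner of KLF3, 1.65-fold, and Sap30, a subunit of the SIN3 complex, 1.76-fold, while Ctbp1 had a log2 difference of 0.12 and was not called. Of 11 coactivators and ubiquitin ligases 0 were called by limma over both genotypes, and 2 were without both WT replicate 2 libraries. Of the 19 immediate-early genes 3 were called higher in FO (Jund, Ier2 and Dusp2) and 4 higher in MZ (Jun, Egr2, Zfp36 and Myc), against 7.45% and 10.9% of all genes. The counts were 1 and 2 without cKO MZ replicate 1 and 2 and 6 without both WT replicate 2 libraries. No gene of these lists was called between cKO and WT over both subsets.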

How the data were processed

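RNA-seq of 8 libraries was used. According to the study's methods, ribosomal RNA was removed from total RNA, and HISAT2 (mm10), featureCounts and htseq-count made the counts per gene. Tool versions, annotation and strand setting are not given in the sources used here. The authors deposited the signal as normalized counts, whole reads divided by DESeq2 size factors, and 100% of values were whole reads within 0.01 when multiplied back. Log2(normalized count + 1) of the 14761 genes with a mean of at least 10 was modelled with limma 3.58.1 (eBayes with trend, R 4.3.3) as 4 group means over 8 libraries, with Benjamini-Hochberg adjustment over all genes tested. The pseudocount of 1 understates changes of low genes, and size factors assume that most genes do not differ. Intervals are 95% intervals of this fit. The recovered reads were also tested with DESeq2 1.42.0 and edgeR 4.0.16 (quasi-likelihood). The tests were tried on simulated data. The named genes were the 9 members, Gtf2i, the genes of the fixed lists, the markers and the 3 genes most like each member called over both genotypes. Members and lists were chosen with earlier results of these data known. With 2 libraries against 2, an exact permutation test of 1 gene cannot reach 0.05. Replicates differed by far more than counting error. Promoters are from RefSeq on GRCm38, gene coordinates and lengths from the GRCm38 annotation. The 8 ATAC-seq samples were not analysed here, and values of a few genes were left out of the text.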

Additional observations from a re-analysis of the deposited data

How the results depend on the processing

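Klf3 was called higher in FO in all 3 FO to MZ comparisons under every alternative listed in this paragraph. Over both genotypes the members called were 3, and 2 to 4 with a library left out: Klf2 dropped out without cKO MZ replicate 1. In WT the count of 2 fell to 1 with no filter on low values and with only the 4 libraries compared, where Klf10 was lost, and ran from 1 to 3 with each library left out (3 without WT MZ replicate 1). In cKO the count of 3 ran from 1 to 3, being 1 (Klf3) without cKO MZ replicate 1. Klf2 in cKO was past the threshold in the fit reported and not with a pseudocount of 0.5, no filter, quantile normalization or edgeR. The genotype and interaction counts were 0 under each of these. A fit of only the 4 libraries compared could not be made for values over both genotypes or subsets. The differences that changed sign were not called before or after. With quantile normalization the FO to MZ difference in WT was 0.064 for Klf9, the cKO to WT difference in MZ was 0.052 for Klf2 and the interaction was -0.041 for Klf6. With DESeq2 the FO to MZ difference in WT was 0.20 for Klf9, the cKO to WT difference in MZ was -0.033 for Klf4 and the cKO to WT difference over both subsets was -0.016 for Klf2. With edgeR the FO to MZ difference in WT was 0.20 for Klf9, the cKO to WT difference in MZ was -0.02 for Klf4 and the cKO to WT difference over both subsets was -0.005 for Klf2. Without both WT replicate 2 libraries, an alternative chosen after seeing the data, the FO to MZ difference in WT was 0.44 for Klf9, the cKO to WT difference in MZ was -0.43 for Klf4, -0.56 for Klf6, -0.39 for Klf9 and -0.042 for Klf11, the cKO to WT difference in FO was -0.16 for Klf2, -0.26 for Klf4, -0.25 for Klf6, 0.13 for Klf7, -0.50 for Klf9 and -0.11 for Klf10, the cKO to WT difference over both subsets was -0.435 for Klf2, -0.34 for Klf4, -0.405 for Klf6 and -0.44 for Klf9 and the interaction was -0.12 for Klf9 and 0.087 for Klf11. With each library left out in turn, the FO to MZ difference in WT ran from -0.21 to 0.68 for Klf4, -0.50 to 1.23 for Klf6 and -1.14 to 1.03 for Klf9. For the FO to MZ difference in cKO the range was -0.066 to 0.71 for Klf9. For the FO to MZ difference over both genotypes the range was -0.049 to 0.81 for Klf6 and -0.41 to 0.68 for Klf9. For the cKO to WT difference in MZ the range was -0.71 to 0.65 for Klf2, -0.43 to 0.45 for Klf4, -0.56 to 1.17 for Klf6, -0.054 to 0.22 for Klf7, -0.39 to 0.80 for Klf9 and -0.042 to 1.06 for Klf11. For the cKO to WT difference in FO the range was -0.16 to 0.53 for Klf2, -0.26 to 0.64 for Klf4, -0.25 to 0.94 for Klf6, -0.25 to 0.13 for Klf7, -0.50 to 1.67 for Klf9 and -0.11 to 0.58 for Klf10. For the cKO to WT difference over both subsets the range was -0.26 to 0.41 for Klf2, -0.12 to 0.32 for Klf4, -0.11 to 0.76 for Klf6, -0.083 to 0.11 for Klf7, -0.15 to 0.94 for Klf9 and -0.24 to 0.10 for Klf10. For the interaction the range was -0.46 to 0.89 for Klf2, -0.26 to 0.63 for Klf4, -0.83 to 0.90 for Klf6, -0.34 to 0.045 for Klf7, -0.71 to 1.47 for Klf9, -0.70 to 0.41 for Klf11 and -0.012 to 0.29 for Klf13. The cause was not tested.

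With the replicate number as a block, which pairs libraries of the same number, 4 members were called over both genotypes in place of 3, Klf11 being the addition (adjusted p = 0.0464). The deviations of same-numbered libraries correlated from -0.402 to 0.769 between groups, being positive among WT FO, WT MZ and cKO FO (0.337 to 0.769) and negative for each pair with cKO MZ, so the numbers were treated as names only. A replicate block with the cKO MZ numbers exchanged, chosen after seeing the data, called 4 in WT, adding Klf2 (adjusted p = 0.0237) and Klf11 (0.0334). The level per kilobase with the longest coding transcript was 744 for Klf3, 113 for Klf10 and 1094 for Klf13. The number of libraries, 2 a group, limits the precision more than counting error does.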
